A study of Oryctolagus cuniculus with 6 samples.

Results

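Transcripts of 9 genes known from salivary gland epithelium were followed in injured facial nerve of the rabbit. The genes were DNASE1, CA6, PIP, ZG16B, AQP5, SLC12A2, CLDN10, DMBT1 and ELF5, and all 9 were found by symbol among the 17396 genes counted. They were chosen by name from the gland's secretory programme after counts of these libraries were known, in which DNASE1 had been the highest gene of 1 library and CLDN10 had shown one of the largest differences between the groups. For this reason the levels and group differences of the 9 genes are given as a description, with no test. The FNI group held 3 libraries from rabbits whose left facial nerve trunk had been cut, and the FNI+I-125 group held 3 from rabbits with the same cut and a radioactive I-125 seed placed near the nerve. All were wild-type male Japanese white rabbits of 3 to 4 months, the injured nerve was taken on day 14, and there were 3 mRNA libraries per group, taken as 1 per rabbit. The seed was put in when the wound was closed, and both groups carried the cut, so that the comparison is of seed against no seed in cut nerve. Total counts ran from 16031151 to 16798012 per library, and all 9 genes passed the filter on low counts, as did 14003 genes in all. Schwann cell transcripts were present in every library, but the summed share of 25 Schwann cell markers ran from 0.109% to 4.70% of the counts.

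The trunk of the facial nerve passes through the parotid region after leaving the skull, and the gland lies against it. In salivary glands, acinar cells make the primary fluid and most of the protein of saliva, and ducts then change the salt content of the fluid. Chloride is loaded at the base of the acinar cell by a sodium-potassium-chloride cotransporter, water follows at the apex through a water channel, and tight junction proteins set which ions pass between the cells. The 9 genes cover these steps. DNASE1, CA6, PIP, ZG16B and DMBT1 encode secreted proteins, AQP5, SLC12A2 and CLDN10 serve fluid transport, and ELF5 is a transcription factor of gland epithelium.

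Together the 9 genes took very different shares of the libraries. FNI replicates 1, 2 and 3 gave them 0.455%, 5.60% and 0.0312% of all counts. With the seed, replicates 1, 2 and 3 gave them 0.0873%, 0.00660% and 0.0132%. The mean share was 2.03% ± 3.10 (SD, n = 3) for FNI and 0.0357% ± 0.0448 (SD, n = 3) for FNI+I-125, so that in each group the SD exceeded the mean. FNI replicate 2 stood far above all others, and FNI+I-125 replicate 1 lay above FNI replicate 3, so the groups overlapped. The 95% Wilson interval of the share was 5.59% to 5.61% in FNI replicate 2 and 0.00622% to 0.00700% in FNI+I-125 replicate 2, which covers counting error only. Without DNASE1, the other 8 genes held 0.208%, 1.05% and 0.0296% in FNI against 0.0345%, 0.00498% and 0.0118% in FNI+I-125, with FNI replicates 2 and 1 again on top. In tissue RNA, fewer cells of a type and less RNA per cell cannot be told apart.

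**Figure D1:**
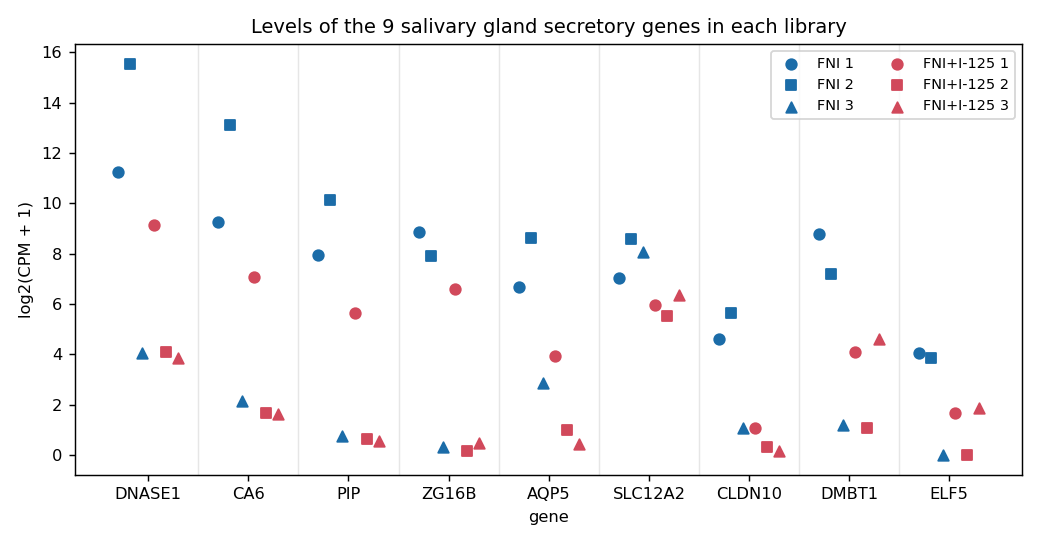
Level of each of the 9 genes in each library, as log2(CPM + 1), where CPM is the count relative to the TMM-adjusted library total, times 1000000, with FNI libraries in blue and FNI+I-125 libraries in red, and circle, square and triangle for replicates 1, 2 and 3. FNI replicates 1 and 2 were highest for every gene except SLC12A2, FNI+I-125 replicate 1 came next for DNASE1, CA6, PIP, ZG16B and AQP5, and FNI+I-125 replicate 3 came next for DMBT1 and ELF5.

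The secreted proteins included DNASE1, an enzyme that cuts DNA outside the cell. FNI replicates 1, 2 and 3 held 41304, 763338 and 267 counts of it, and the FNI+I-125 replicates, in the same order, 8762, 266 and 229. In FNI replicate 2 it had the highest count of all genes, not corrected for length, with 4.54% of the library. It ranked 24th in FNI replicate 1 and 171st in FNI+I-125 replicate 1, and 8047th to 8734th in the other libraries. CA6, the carbonic anhydrase that is secreted into saliva, followed the same order. Its counts were 10359, 139452 and 59 without the seed and 2045, 36 and 36 with it. PIP, a small protein of saliva, tears and sweat, had 4227, 17951 and 12 counts against 754, 9 and 8. For these 3 genes FNI replicate 2 was the highest library, FNI replicate 1 the second and FNI+I-125 replicate 1 the third, and the remaining libraries were close to each other. FNI replicate 2 exceeded FNI replicate 1 by 19.9-fold in CPM for DNASE1, 14.5-fold for CA6 and 4.57-fold for PIP.

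ZG16B, a lectin of saliva, had 7935, 3771 and 4 counts in FNI against 1468, 2 and 7 in FNI+I-125. Here FNI replicate 1 was the highest library, and FNI replicate 2 held 237 CPM against its 464 CPM. DMBT1, a scavenger receptor-like glycoprotein that agglutinates bacteria, had 7441, 2329 and 22 counts in the FNI libraries. In the FNI+I-125 libraries it had 243, 18 and 397 counts, so that replicate 3, which was among the lowest for DNASE1, CA6 and PIP, was the highest of its group. The groups overlapped for all 5 secreted proteins.

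AQP5, the apical water channel, had 1731, 6203 and 108 counts in FNI against 221, 17 and 6 in FNI+I-125. It shared the order of CA6 at the top, and FNI replicate 3 lay clearly above the lowest libraries, at 6.38 CPM against 1.03 and 0.352 CPM in FNI+I-125 replicates 2 and 3. CLDN10, a claudin that forms ion-selective pores in tight junctions, had 401, 777 and 19 counts against 17, 4 and 2. Its groups did not overlap, though FNI replicate 3 at 1.12 CPM and FNI+I-125 replicate 1 at 1.11 CPM were nearly equal. SLC12A2, the sodium-potassium-chloride cotransporter, had 2250, 6043 and 4523 counts in FNI against 950, 737 and 1382 in FNI+I-125. This was 260 ± 124 CPM against 62.6 ± 18.1 CPM (SD, n = 3 each), and every FNI library lay above every FNI+I-125 library. The order of SLC12A2 differed from that of the other genes, since FNI replicate 3, where most of them were near their lowest level, was its second highest library. That library also held the largest share of Schwann cell markers, and the part of nerve cells in the SLC12A2 level was not tested.

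ELF5, an ETS family transcription factor, had 268, 211 and 0 counts in FNI against 33, 0 and 45 in FNI+I-125. A count of 0 allows up to 0.177 CPM in FNI replicate 3 and 0.182 CPM in FNI+I-125 replicate 2. As for DMBT1, FNI replicate 1 was the highest library and FNI+I-125 replicate 3 the highest of its group.

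The fitted log2 fold change of FNI+I-125 against FNI was below 0 for all 9 genes, with a median of -4.78, while the median over all 14003 genes tested was 0.01. It was -6.39 for DNASE1 (standard error 2.99), -6.09 for CA6 (2.98), -4.78 for PIP (2.67) and -2.87 for ZG16B (2.62). It was -4.98 for AQP5 (1.92), -5.64 for CLDN10 (1.53), -3.86 for DMBT1 (1.86), -2.59 for ELF5 (1.87) and -2.05 for SLC12A2 (0.43). Each standard error is the absolute log2 fold change divided by the square root of the F statistic of edgeR's quasi-likelihood fit. No p is taken from these errors, which were largest for DNASE1 and CA6 and smallest for SLC12A2. The size of these differences rested on single libraries. Without FNI replicate 2, the log2 fold change was -2.60 for DNASE1 and -2.73 for CA6, and without FNI+I-125 replicate 1 it was -10.15 and -10.50. That of ZG16B ran from -1.89 without FNI replicate 1 to -9.73 without FNI+I-125 replicate 1. That of SLC12A2 stayed between -2.37 and -1.67 with any 1 library left out. For SLC12A2 and CLDN10, 2 of the 9 genes, the groups were apart, both lower in the FNI+I-125 group, where 12.3% of all genes tested were lower without overlap. As the genes were chosen with these levels known, nothing is read from this count.

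Counts of different genes within 1 library need no scaling, so the make-up of the counts of these genes was compared by ratios. DNASE1 had 3.99 and 5.47 counts for each CA6 count in FNI replicates 1 and 2, and 4.28 in FNI+I-125 replicate 1. The ratio stayed near these values where both genes were low, at 4.53 in FNI replicate 3, 7.39 in FNI+I-125 replicate 2 and 6.36 in FNI+I-125 replicate 3, the latter pair with 36 CA6 counts each. ZG16B behaved differently from CA6. For each CA6 count, it had 0.766 counts in FNI replicate 1 and 0.718 in FNI+I-125 replicate 1, but 0.0270 in FNI replicate 2. PIP had 0.408, 0.369 and 0.129 counts per CA6 count in the same libraries. For ZG16B and PIP, FNI replicate 1 and FNI+I-125 replicate 1 were thus close although they belonged to different groups. FNI replicate 2 stood apart from both. Other ratios to CA6 in FNI replicate 1 and FNI+I-125 replicate 1 were 0.167 and 0.108 for AQP5 and 0.0259 and 0.0161 for ELF5. They were 0.217 and 0.4645 for SLC12A2 and 0.0387 and 0.00831 for CLDN10. The ratio of DMBT1 to CA6 differed between FNI replicate 1, at 0.718, and FNI+I-125 replicate 1, at 0.119, and was 11.0 in FNI+I-125 replicate 3.

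**Figure D2:**
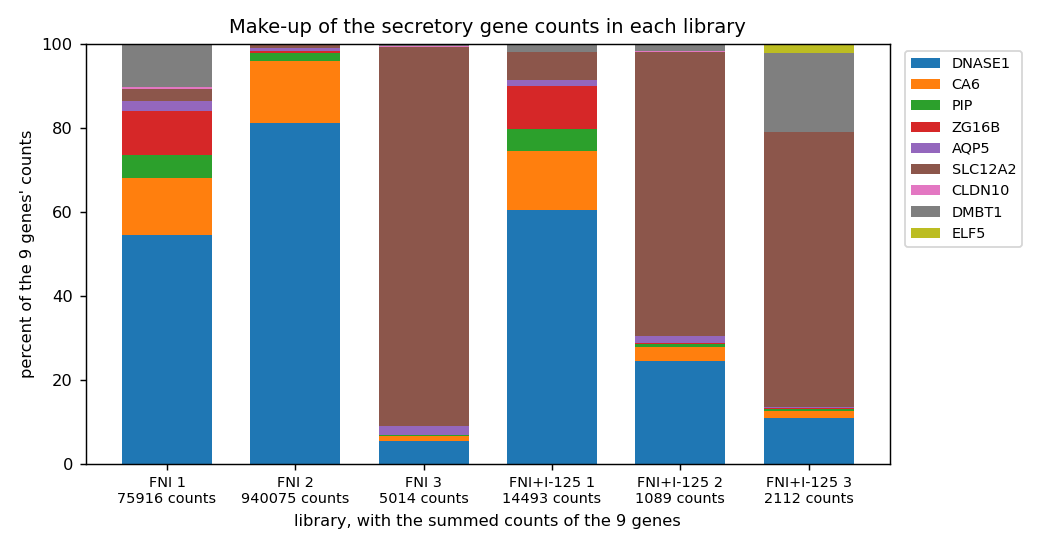
Share of each gene in the summed counts of the 9 genes, in percent, for each library, with the summed counts under each bar. DNASE1 made up 54.4% and 81.2% in FNI replicates 1 and 2 and 60.5% in FNI+I-125 replicate 1, whereas SLC12A2 made up 90.2%, 67.7% and 65.4% in FNI replicate 3 and FNI+I-125 replicates 2 and 3.

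In FNI replicate 3 and FNI+I-125 replicates 2 and 3, DNASE1, CA6 and PIP were present at a low and similar level. DNASE1 counts in these libraries were 0.0350%, 0.0348% and 0.0300% of the DNASE1 counts of FNI replicate 2. For CA6 the shares were 0.0423%, 0.0258% and 0.0258%, and for PIP they were 0.0669%, 0.0501% and 0.0446%. By contrast, SLC12A2 stood at 74.9%, 12.2% and 22.9% of its count in FNI replicate 2, and DMBT1 at 0.945%, 0.773% and 17.05%. Whether the few DNASE1, CA6 and PIP reads of these libraries came from cells in those nerves or from other libraries handled with them was not tested.

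Over the 6 libraries, 6 of the 9 genes had a Pearson's r over 0.9 between their log2(CPM + 1) and the mean of the other 8. It was highest for PIP (0.990) and CA6 (0.983) and lowest for SLC12A2 (0.508). DMBT1 and ELF5 had their highest pairwise r with each other (0.992), and DNASE1 had its highest with CA6 (0.999). These values are given as a description over 6 libraries that form separated levels, with no test. With the mean of all 9 genes, an r over 0.9 was found for 7 of the 9 and for 0.578% of all genes tested. Each of the 9 is itself part of that mean, and all 9 are among the genes tested. The most similar gene outside the list, LOC100343733 (r = 0.994), which had no symbol in the RefSeq table used, had 15555, 101877 and 103 counts in FNI against 2573, 49 and 63 in FNI+I-125. LOC100352281 (r = 0.992) reached 389408 counts in FNI replicate 2 and 52760 in FNI replicate 1, with 8079 in FNI+I-125 replicate 1 and 127 to 199 in the other libraries. LOC108175716 (r = 0.992), with 5656 and 7854 counts in FNI replicates 1 and 2 and at most 4 in the 3 low libraries, LOC108176289 and LOC100349505 followed the same order. So did C12H6orf58 (r = 0.982), with 185 and 669 counts in FNI replicates 1 and 2 against 29 in FNI+I-125 replicate 1, and CYP17A1 (r = 0.981), a steroid hydroxylase, with 368 and 1408 against 36. The remaining 3 of the 10 most similar genes varied little. PIK3R3 ran from 27.7 to 34.6 CPM, ZCCHC17 from 18.2 to 24.1 CPM and GRAMD3 from 57.2 to 91.6 CPM over all libraries. The choice of these 10 genes was unstable, since 2 to 7 of them were again among the 10 most similar when a library was left out.

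The wider gland programme was described by lists of 176 other genes, of which 139 were in the files and 118 were tested. Amylases and several other salivary products of these lists were not analysed here. Of the 118 genes, 51 had a log2 fold change above 0 and 67 below 0, with a median of -0.13. With edgeR's quasi-likelihood test, 0 of the 118 genes passed both an adjusted p of 0.05 and an absolute log2 fold change of 1.5, as did 0% of all genes tested. When the p was left unadjusted and the fold kept, 1 gene was higher and 3 were lower, where 2.77% of all genes were higher and 2.19% were lower. At the same thresholds DESeq2 called 0 higher and 3 lower of the 114 list genes to which it gave an adjusted p, namely CLDN1, FOXC1 and PAX9, where it called 2.08% of all genes higher and 1.26% lower. The groups did not overlap for 6 genes higher and 7 lower of the 118, where 14.8% and 12.3% of all genes did so. The difference between these genes and the 9 secretory genes was not tested. Of the 118 genes, 4 had an r over 0.9 with the mean of the 9, namely PAX9, BPIFA1, ANO1 and KIT, all named after their values were seen. BPIFA1, a secreted protein of upper airway and gland epithelium, had 66, 411 and 0 counts in FNI against 43, 0 and 1 in FNI+I-125, the order of CA6. ANO1, the apical chloride channel of acinar cells, ran over a narrower range, with 23.8, 28.9 and 7.79 CPM against 9.08, 6.75 and 12.0 CPM.

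**Figure D3:**
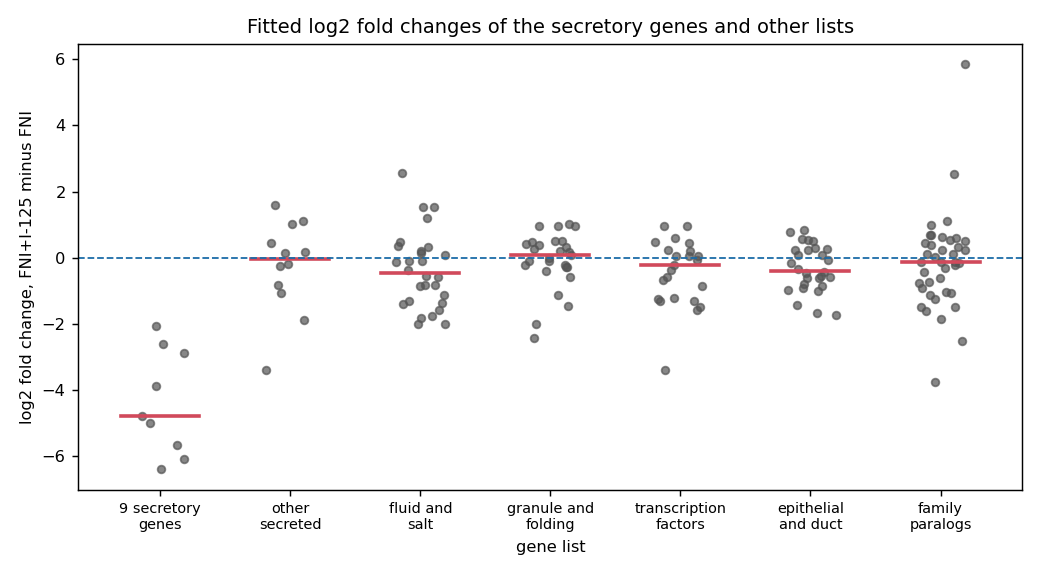
Fitted log2 fold change of FNI+I-125 against FNI for each tested gene of 7 lists, as grey points, with the list median as a red line and the median of all genes tested as a dashed line. The median was -4.78 for the 9 secretory genes and lay between -0.47 and 0.08 for the other lists.

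The median of these 118 genes moved with the libraries and the fit. It was -0.56 with limma-voom, -1.09 under a replicate block and -1.85 without FNI+I-125 replicate 3, and it turned above 0, to 0.15, 0.06 and 0.12, without FNI replicate 1 and FNI+I-125 replicates 1 and 2. Keratin 5 (KRT5), a keratin of basal duct, myoepithelial and other stratified epithelial cells, had 603, 31.5 and 0.886 CPM in FNI against 1.57, 0.426 and 947 CPM in FNI+I-125. KRT17 had 261, 8.37 and 0.295 CPM against 1.05, 0.973 and 318 CPM. In both keratins FNI+I-125 replicate 3 was the highest of all libraries and FNI replicate 1 the second. In the list of 28 tested epithelial, duct and myoepithelial genes, 11 had a log2 fold change above 0 and 17 below 0, with a median of -0.40, and FNI+I-125 replicate 3 was the highest library for 14. Over all genes tested it was the highest library for 11.8%, and for 0 of the 9 secretory genes. ERBB3 and ACTG2, also among the most abundant of the list, ran from 45.0 to 239 CPM and from 41.1 to 129 CPM. ERBB3 is also among the Schwann cell markers, and was highest in FNI replicate 3.

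The same library was high for several secreted proteins of duct and surface epithelium. PIGR, the receptor that carries antibodies of the IgA class across epithelium, had 367, 35.5 and 0.118 CPM in FNI against 24.3, 0.426 and 432 CPM in FNI+I-125. WFDC2, a small secreted protein of many glands, had 338, 107 and 2.07 CPM against 2.55, 0.486 and 603 CPM. CXCL17, a chemokine of mucosal epithelium, had 41.6, 3.96 and 0.118 CPM against 0.261, 0 and 98.0 CPM. LTF, which encodes the iron-binding lactoferrin, did not follow them, with 65.5, 17.2 and 9.27 CPM against 41.6, 2.31 and 0.411 CPM. These genes were from a list of other proteins that salivary or lacrimal gland cells secrete, of which 19 of 50 were counted. The 12 tested genes of that list had a median log2 fold change of -0.03, with 6 above 0 and 6 below 0.

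Among 23 tested transcription factors and splicing regulators of salivary epithelium, 10 had a log2 fold change above 0 and 13 below 0, with a median of -0.23. EHF, an epithelial ETS factor related to ELF5, had 125, 72.5 and 0.590 CPM in FNI against 5.55, 0.486 and 104 CPM in FNI+I-125. TFCP2L1, a duct cell factor, had 83.7, 29.7 and 0.236 CPM against 0.653, 0.0608 and 118 CPM. SOX9 and KLF5, in contrast, were highest in FNI replicate 3, at 72.8 and 243 CPM. FNI+I-125 replicate 3 was the highest library for 11 of the 23 genes and lay above both other FNI+I-125 libraries for 21 (91.3%), where 30.4% of all genes tested did so. PAX9, named after its values were seen, was closer to the secretory genes, with 32.3, 69.5 and 4.01 CPM against 5.81, 0.243 and 4.11 CPM (DESeq2, log2 fold change -3.39, standard error 1.11, adjusted p = 0.0405). FOXC1 (-1.51, standard error 0.46, adjusted p = 0.0282 in DESeq2) and CLDN1 (-1.75, standard error 0.55, adjusted p = 0.0317 in DESeq2) were both highest in FNI replicate 3, and are also named after their values were seen. With edgeR's quasi-likelihood test the adjusted p was 0.286 for PAX9 and 0.280 for both FOXC1 and CLDN1.

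**Figure D4:**
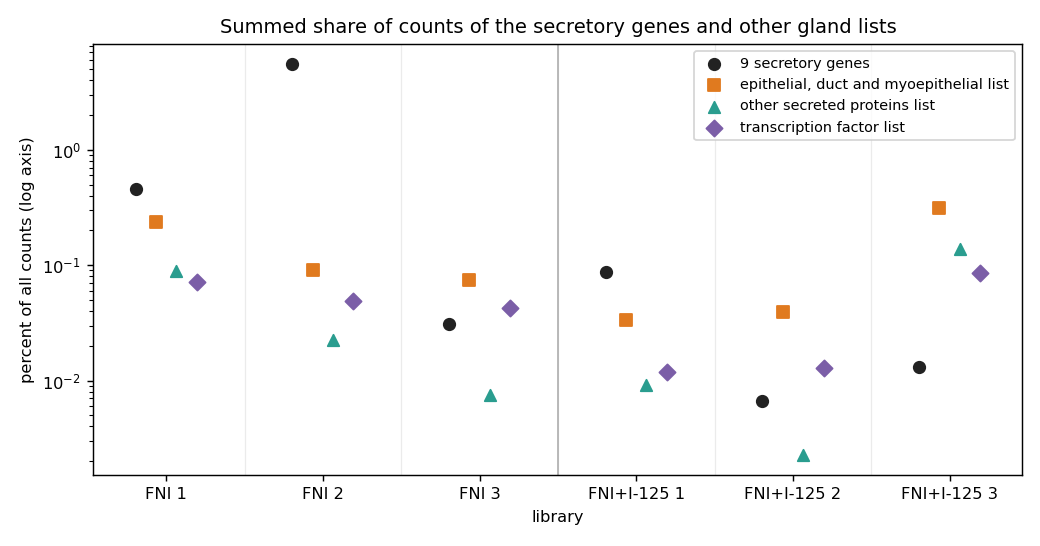
Percent of all counts, on a log axis, held by the 9 secretory genes and by 3 other gland lists in each library. The 9 genes stood at 0.0132% in FNI+I-125 replicate 3, one of their lowest levels, whereas the epithelial, duct and myoepithelial list stood at 0.311% there, its highest level.

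For fluid and salt transport, 28 genes were tested, 10 with a log2 fold change above 0 and 18 below 0, with a median of -0.47. The calcium release channel ITPR3 had 274, 222 and 708 CPM in the FNI libraries against 108, 177 and 178 CPM, without overlap (log2 fold change -1.38, standard error 0.49, adjusted p = 0.280 in edgeR's quasi-likelihood test). ITPR2, a related release channel, and the anion exchanger SLC4A2 had log2 fold changes of -0.08 and 0.09. VIPR1 and KCNMA1, named after their values were seen, were the 2 genes of this list that passed the unadjusted p and the fold. VIPR1, a receptor for the secretagogue VIP, had 1.75, 3.90 and 3.36 CPM against 0.457, 0.365 and 1.41 CPM, and KCNMA1, a potassium channel, had 13.2, 18.1 and 3.31 CPM against 46.2, 25.6 and 29.5 CPM (adjusted p = 0.280 and 0.287 in edgeR's test). Of 27 tested genes for granule traffic and protein folding, 14 had a log2 fold change above 0 and 13 below 0, with a median of 0.08. CREB3L1, XBP1, SSR4 and TMED3, its most abundant genes, had log2 fold changes from 0.08 to 0.52 and are also used by other secreting cells. BHLHA15, a transcription factor of serous acinar and plasma cells, is named after its values were seen. It had 15.4, 75.3 and 0.295 CPM in FNI against 14.0, 4.01 and 4.75 CPM in FNI+I-125. The plasma cell gene JCHAIN had 504, 166 and 10.04 CPM against 827, 349 and 404 CPM. DERL3, also on the B and plasma cell list, had 2.05, 18.75 and 0.118 CPM against 9.53, 3.22 and 1.99 CPM. DERL3 is named after its values were seen. The part of plasma cells in the BHLHA15 level was not tested.

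The families of the 9 genes were compared through 39 tested paralogs, of which 18 had a log2 fold change above 0 and 21 below 0, with a median of -0.12. None was called at the adjusted p with edgeR, 2 higher and 1 lower passed the unadjusted p and the fold change (2.77% and 2.19% of all genes), and DESeq2 called 0 higher and 1 lower, CLDN19 (2.08% and 1.26% of all genes). AQP1, the water channel of vessels, had 1098, 983 and 1253 CPM in the FNI libraries against 608, 824 and 527 CPM, a much narrower range than AQP5 (log2 fold change -0.77, standard error 0.23, adjusted p = 0.280 in edgeR's test). SLC12A4, a potassium-chloride cotransporter, ran from 189 to 296 CPM over all libraries. DNASE1L1 ran from 56.4 to 135 CPM and the ETS gene ELF1 from 50.6 to 76.6 CPM. CLDN19, a claudin of Schwann cells, had 72.7, 35.4 and 380 CPM against 3.85, 30.9 and 1.82 CPM. CA3, the carbonic anhydrase of muscle and fat, had 6.14, 0.315 and 1.24 CPM against 269, 177 and 0.0586 CPM. CD163, a macrophage member of the scavenger receptor family that includes DMBT1, ran from 30.05 to 200.1 CPM, highest in FNI+I-125 replicate 1.

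Markers of other tissues varied over the same libraries. The summed share of 24 skeletal muscle genes was 0.631% in FNI+I-125 replicate 1, 0.608% in FNI+I-125 replicate 2 and 0.00510% to 0.0151% in the other 4 libraries, led by ACTA1 and TTN. The share of 17 adipocyte genes, led by ADIPOQ and LPL, was 0.194% to 0.612% in the FNI group and 0.116% to 0.211% in the FNI+I-125 group. The 18 macrophage and neutrophil genes, led by CSF1R and CD68, held 0.0364% to 0.122% against 0.175% to 0.295%. The 16 skin keratinocyte and hair follicle genes held 0.00157% to 0.00671% in 5 libraries and 0.0195% in FNI+I-125 replicate 3, where 1 gene of the list was at 0. Of these, KRT10 ran from 11.4 to 19.1 CPM over all libraries, and DSG1, a desmosome gene of stratified epithelium, had 80.3 CPM in that library and 27.9 CPM in FNI replicate 1. The 19 B and plasma cell genes, led by JCHAIN and XBP1, held 0.0139% to 0.0832% in the FNI group and 0.0671% to 0.121% in the FNI+I-125 group. The 18 fibroblast genes, led by COL1A1 and COL3A1, held 8.41% to 15.4% against 12.0% to 19.0%, and the 17 endothelial genes, led by VWF and PECAM1, held 0.288% to 0.377% against 0.242% to 0.336%. The part of these tissues, or of gland taken with the nerve, in the levels of the 9 genes was not tested.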

How the data were processed

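The authors deposited raw counts per gene, 1 file per library and not pooled. The submitters' processing notes name HISAT2 and OryCun2.0. The library kit marks strand. The counting program, its annotation and its use of strand are not given in the sources used here. The 2992 LOC identifiers were matched to the RefSeq table of mOryCun1.1, which named 542 of them. No coordinates are given, as the builds differ. Spreadsheet dates stood in place of 25 gene names, with 0.188% of the counts, and these were kept.

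FNI+I-125 was compared with FNI by edgeR 4.0.16 (R 4.3.3) with TMM factors (0.923 to 1.06), filterByExpr at a minimum count of 10, and glmQLFit and glmQLFTest at default settings, and p-values adjusted by Benjamini-Hochberg across the 14003 genes kept. Standard errors beside edgeR values were derived as the absolute log2 fold change over the square root of the F statistic. Those beside DESeq2 values are the ones that DESeq2 gives, so the 2 kinds are not alike. The thresholds, 0.05 for the adjusted p and 1.5 for the absolute log2 fold change, are those of the study. DESeq2 1.42.0 and limma 3.58.1 were alternatives, with other normalizations, filters and thresholds, a replicate block and each library left out. The main edgeR fit, DESeq2 and limma-voom were tested on simulated data, and the other settings were not. CPM uses the TMM factors, log2 levels a pseudocount of 1, and shares the total counts. Levels are not corrected for gene length, so that orders of genes by count or CPM, also in the rule below, are not orders of transcript number.

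The 9 genes, the lists and the named-gene rule were chosen with earlier results of these data known. The rule names the 4 most abundant genes of each gland list, the most abundant paralog of each family, the 10 genes most similar to the mean of the 9 by Pearson's r, and the 2 most abundant genes of each cell type list. Some genes that the rule names are not reported here. The methods give 3 rabbits per group, so each library was taken as 1 rabbit. Same-numbered libraries did not deviate together (r of 0.0519, -0.191 and -0.137), so the numbers were not taken as pairs.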

Additional observations from a re-analysis of the deposited data

How the results depend on the processing

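All 147 alternative fits of a single gene among the 9 kept a log2 fold change below 0. The fits reuse the same libraries, and the genes were chosen with these levels known, so nothing is read from the shared sign. With any 1 library left out, the median of the 9 genes ran from -7.89 to -2.86, the former without FNI+I-125 replicate 1. The mean summed share then ran from 0.243% to 3.03% in the FNI group and from 0.00988% to 0.0503% in the FNI+I-125 group. The median of the 118 other gland genes ran from -1.85 without FNI+I-125 replicate 3 to 0.15 without FNI replicate 1. It also turned above 0, to 0.06 and 0.12, without FNI+I-125 replicates 1 and 2, and to 0.23 without FNI replicate 2 and FNI+I-125 replicate 1 together, a choice made after seeing the data. Counts called by DESeq2 were 289 higher and 175 lower of all genes, 3 lower of the gland lists and 1 lower of the paralogs. At the unadjusted p of edgeR's test, 388 genes were higher and 306 lower, with 1 and 3 of the gland lists and 2 and 1 of the paralogs. With a library left out, edgeR at the adjusted p called 0 to 38 genes higher and 0 to 2 lower. The 38 and 2 were without FNI+I-125 replicate 3, and 0 of the gland lists and paralogs were called. With Spearman's rho, 2 of the 10 most similar genes had the full rank agreement that 14 genes reached, and 2 to 7 were retained with a library left out. Under the replicate block the log2 fold change was -2.89 for DNASE1 and -3.21 for CA6, the median of the gland lists was -1.09, and 0 genes were called. That median was -0.56 with limma-voom. The cause of these shifts was not tested. Counts of 3 or fewer are limited by depth. This held for ZG16B in FNI+I-125 replicate 2 and CLDN10 in FNI+I-125 replicate 3. It also held for ELF5 in FNI replicate 3 and FNI+I-125 replicate 2.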
